A study of Mus musculus with 4 samples.

Results

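Kupffer cells that carried few transcripts of scar-associated macrophage genes were compared between mice given carbon tetrachloride (CCl4) and mice given its vehicle. Members were chosen by UMI counts (unique molecules counted per cell and gene). A cell had to hold at least 200 genes and at most 25% mitochondrial UMIs, at least 5 Clec4f UMIs, and at least 15 UMIs over Clec4f, Vsig4 and Cd5l. It had to hold under 5 UMIs over Mmp12, Gpnmb, Spp1 and Adam8, under 2 of Cd207, under 15 over Reln, Colec11 and Dcn, and under 3 over Mki67 and Top2a. The endothelial genes Kdr, Ptprb, Stab2, Oit3, Ehd3 and Egfl7 had to stay under 0.2% of its UMIs. This left 521 cells of the 27091 in the tables and of the 25861 that passed the gene and mitochondrial limits. There were 166 and 165 members in the corn oil mice (corn oil 1 and corn oil 2) and 102 and 88 in the CCl4 mice (CCl4 1 and CCl4 2).

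All 4 mice were wild-type males aged 8 to 10 weeks, with 1 mouse per library. The CCl4 group received CCl4 mixed 1:9 with corn oil, intraperitoneally at 10 µl per g of body weight, 2 times a week for 5 weeks, and the control group received corn oil on the same schedule. Livers were taken 48 hours after the last injection, digested with pronase and collagenase, and freed of hepatocytes by a spin at 50 × g before a density gradient and capture in microwell cartridges (BD Rhapsody). CCl4 is turned into a toxic radical in hepatocytes around the central vein, and repeated dosing is a common model of liver fibrosis. The controls share the vehicle and the digestion, and digestion can itself induce stress genes.

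Kupffer cells are the resident macrophages of the liver sinusoids. They clear particles, bacteria and aged erythrocytes from portal blood through scavenger and complement receptors, recycle iron, and export cholesterol. Clec4f is a lectin restricted to them among mouse macrophages, Vsig4 is a complement receptor, Cd5l an apoptosis inhibitor secreted by tissue macrophages, Timd4 a receptor for phosphatidylserine on dying cells, and C6 a component of the membrane attack complex. In injured liver, macrophages with high Gpnmb, Spp1 and Mmp12 are known from scar areas, and the cells described here are Kupffer cells with little of this signature.

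The summed members held 1705919 and 1365538 UMIs in the corn oil mice and 1618059 and 1177976 in the CCl4 mice, so their pooled depth was similar. Per cell the depth was not, with medians of 8687 and 7327 UMIs in corn oil and 15787 and 14248 in CCl4. The median mitochondrial share was 9.63% and 15.1% in corn oil and 7.27% and 7.16% in CCl4, with corn oil 2 apart from the rest. The headers of the tables date the pipeline run of CCl4 1 earlier than those of the other libraries, and run and mouse cannot be told apart. Any pair of libraries shared 48 to 74 cell barcodes. The labels give each library to a different mouse, so each group holds 2 mice. The edgeR p-values below use a spread estimated over many genes together. They do not rest on a gene's own spread between 2 mice alone.

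The label was checked against markers that the selection did not read. Timd4 stood at 692 and 839 CPM in corn oil and 900.4 and 847 CPM in CCl4, and C6 at 1579 and 1984 CPM in corn oil and 813 and 1099 CPM in CCl4, where CPM is a gene's share of the library's UMIs in the usual CPM unit, after scaling for library composition. With every cell thinned to 4000 UMIs, 90.7%, 89.6%, 93.8% and 90.9% of members held a Timd4 UMI (values run from the corn oil mice to the CCl4 mice), against 0.1% to 0.5% of the first 1000 endothelial cells of each library (without thinning 94.0%, 93.3%, 98.0% and 94.3%, against 0.366% to 0.510%). Thinning kept 140, 134, 97 and 77 members, and the endothelial cells had median depths of 5154, 4200, 6732 and 6139 UMIs before it. Markers of several other lineages were low. T and NK genes made up 0.000309% to 0.00395% of member UMIs, B and plasma cell genes 0.000247% to 0.00258%, conventional dendritic cell genes 0.00229% to 0.00373% and cholangiocyte genes 0.000309% to 0.000469%. The 7 monocyte markers summed to 0.0175% and 0.0247% in corn oil and 0.0591% and 0.0725% in CCl4, and most of these UMIs (252, 297, 883 and 790) were of Plac8 alone. The 14 stellate cell markers, 3 of them used in the selection, summed to 0.0424%, 0.0550%, 0.0373% and 0.0220%. Peritoneal-type macrophage markers were at 0.00158%, 0.0177%, 0.00507% and 0.00331%, so that corn oil 2 stood apart, with 164 UMIs of Fn1 and 50 of Prg4. The 13 hepatocyte markers summed to 0.0190%, 0.0521%, 0.0153% and 0.0242%, highest in corn oil 2. The 15 endothelial markers, 6 of them used in the selection, summed to 0.0900%, 0.122%, 0.106% and 0.0565%. Genes named below that may share reads with near-identical copies or processed pseudogenes, among them Hspa1a, Gapdh, Eno1, Fth1 and Prdx1, are uncertain to that extent.

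Few cells lay close to the scar-gene limit in corn oil and more did in CCl4. Members with 3 or 4 UMIs over Mmp12, Gpnmb, Spp1 and Adam8 numbered 1, 0, 8 and 4 in the same order, and cells just outside, with 5 or 6, numbered 0, 0, 3 and 3. Kupffer cells over the limit (high-scar cells) numbered 2, 3, 59 and 55, so the low-scar cells were 98.8%, 98.2%, 63.4% and 61.5% of both kinds, a split that the selection itself makes. A further 161, 244, 52 and 29 barcodes carried Kupffer and endothelial genes together and were left out.

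Members made up 2.42% and 2.28% of filtered cells in corn oil (exact 95% binomial intervals 2.07% to 2.81% and 1.95% to 2.65%) and 1.66% and 1.57% in CCl4 (1.36% to 2.01% and 1.26% to 1.93%). Intervals cover counting error only. The mean went from 2.35% ± 0.103 (SD, n = 2) to 1.61% ± 0.0675 (SD, n = 2), a log2 ratio of -0.54, and the groups did not overlap. The exact two-sided permutation test gave p = 0.3333, the smallest that 2 against 2 can give. The selection shapes this share. Its scar-gene limit left out 2 and 3 Kupffer cells in corn oil and 59 and 55 in CCl4. Its endothelial limit left out 161 and 244 barcodes in corn oil and 52 and 29 in CCl4. The share is thus not that of all Kupffer cells, and its difference does not show a loss of them. The difference depended on the mitochondrial limit: at 15% it was 1.68% against 1.66% (log2 -0.017, exact permutation p = 1), and corn oil 2 then kept 79 members and the other 3 mice 139, 99 and 86.

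Across the transcriptome, 8764 genes were tested with edgeR's quasi-likelihood test and 780 were called at an adjusted p under 0.05 (8.90%), 415 higher in CCl4 (4.74%) and 365 lower (4.16%). Without composition scaling the split was 599 higher and 292 lower. Without CCl4 1 it was 162 higher and 162 lower, and without corn oil 1 it was 617 higher and 549 lower. The groups did not overlap in 414 of the 415 genes that rose and in all 365 that fell. Groups that lie apart are therefore the rule for a called gene and add little to its call. Over all 8764 genes tested, both CCl4 mice lay above both corn oil mice in 2526 and below in 2414. Another scaling or a library left out could thus hardly turn a called direction. All 780 kept theirs under the other scalings, and all 777 still tested without CCl4 1 did so there. Marco and Lpl stood out among the abundant genes that rose, and those that fell most included MHC class II and clock genes. List counts below are to be read beside the all-gene shares. With a library left out the all-gene counts moved too, and list counts are to be read beside them.

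**Figure D1:**
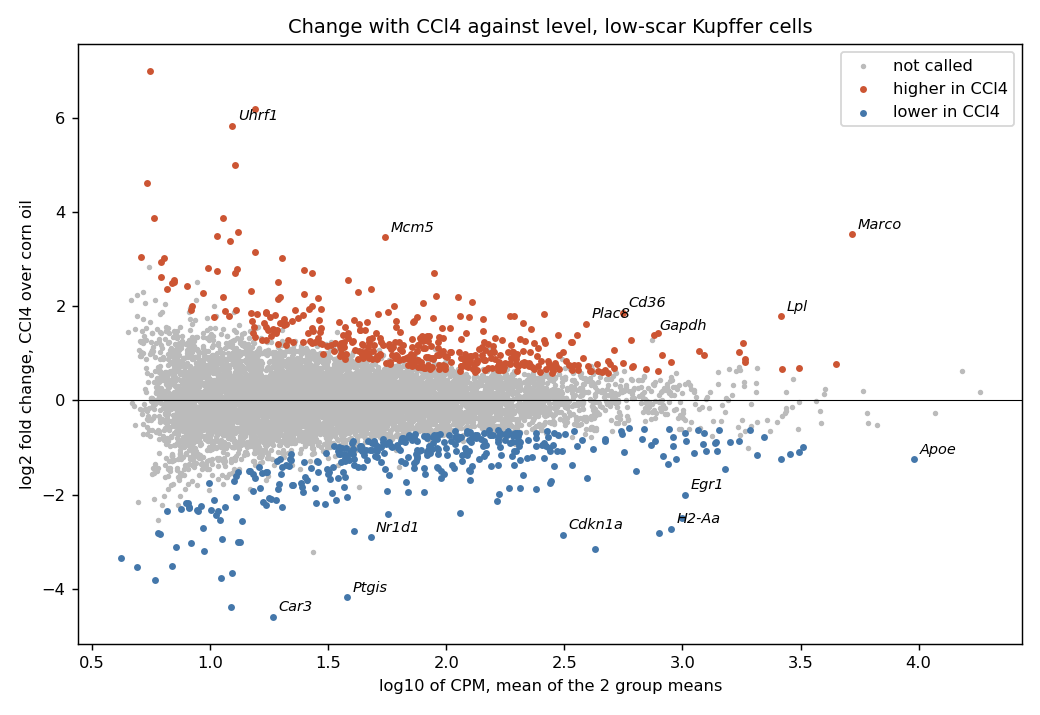
The log2 fold change of each tested gene is plotted against the log10 of its CPM, with called genes coloured. Marco stands apart as an abundant gene with a large rise (log2 3.53), and Apoe is the most abundant of the labelled genes that fell (log2 -1.24).

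**Figure D2:**
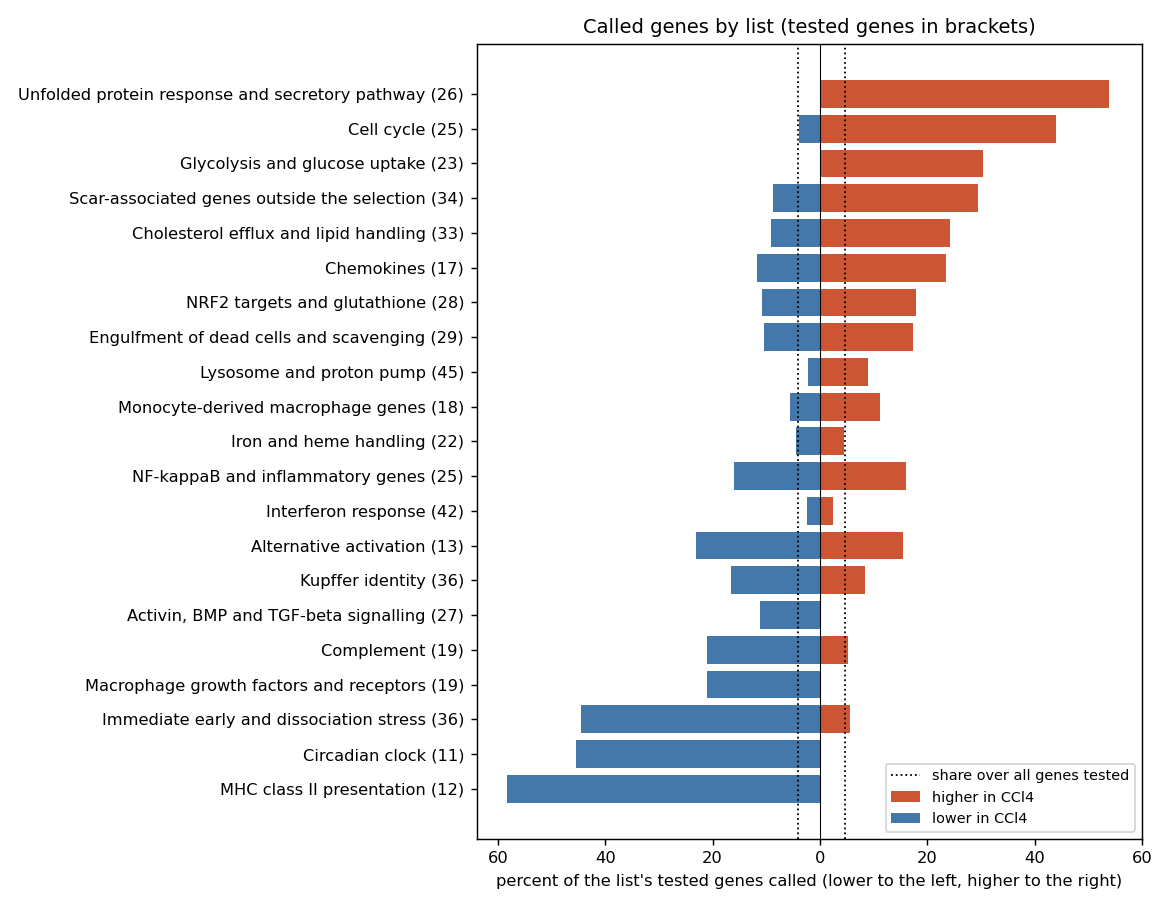
Bars give the percent of each list's tested genes that were called, higher in CCl4 to the right and lower to the left. Dotted lines mark the same share over all genes tested, 4.74% higher and 4.16% lower. The unfolded protein response list has the longest bar to the right (14 of 26) and the MHC class II list the longest to the left (7 of 12).

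Marco, Msr1, Colec12 and Cd36 rose among the scavenger receptor genes, Mrc1 fell, and Marco had the largest rise. Marco encodes a class A scavenger receptor that binds bacteria and unopsonized particles. It was at 986 and 685 CPM in corn oil and 10148 and 9171 CPM in CCl4 (log2 3.53, SE 0.239, adjusted p = 0.000212), on GRCm38 chr1:120474538-120505024, minus strand. Both CCl4 mice lay above both corn oil mice by far more than the mice of a group differed, and the log2 change lay in the range 3.29 to 3.82 over the alternatives run. Msr1, another class A receptor, rose from 720.3 and 957 CPM to 1728 and 1521 CPM (log2 0.96, SE 0.192, adjusted p = 0.0153). Colec12, a collectin-type scavenger receptor, rose from 21.4 and 27.6 CPM to 91.8 and 85.6 CPM (log2 1.87, SE 0.23, adjusted p = 0.00243). Of 29 tested engulfment and scavenging genes 5 rose and 3 fell (27.6% called, against 8.90% of all genes tested). Their median log2 was -0.23 against -0.01 over all genes tested. The genes that fell were the mannose receptor gene Mrc1 (log2 -0.94, SE 0.187, adjusted p = 0.015), the integrin gene Itgb5 (log2 -1.16, SE 0.176, adjusted p = 0.00505) and C1qa. Leaving out a corn oil mouse raised the number that fell to 7, for either mouse. The adjusted p was 0.0617 for Msr1 and 0.107 for Mrc1 without CCl4 1.

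The rise of Marco was a shift of nearly the whole population. In cells thinned to 4000 UMIs the median was 2 and 1 Marco UMIs in corn oil and 40 and 37 in CCl4, and the 90th percentiles of the corn oil mice (12 and 5) lay below the 10th percentiles of the CCl4 mice (19.6 and 20.6). A Marco UMI was seen in 63.6% and 55.2% of corn oil members and in 97.9% and 97.4% of CCl4 members (71.1%, 58.8%, 98.0% and 96.6% without thinning). In endothelial cells of the same libraries the thinned share was 0%, 0.5%, 2.2% and 2.7% (0.318%, 0.475%, 4.55% and 3.07% without thinning). The 0 of 1000 in corn oil 1 allows a share of thinned cells with a UMI of up to 0.3%, by counting error only, and does not limit expression.

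**Figure D3:**
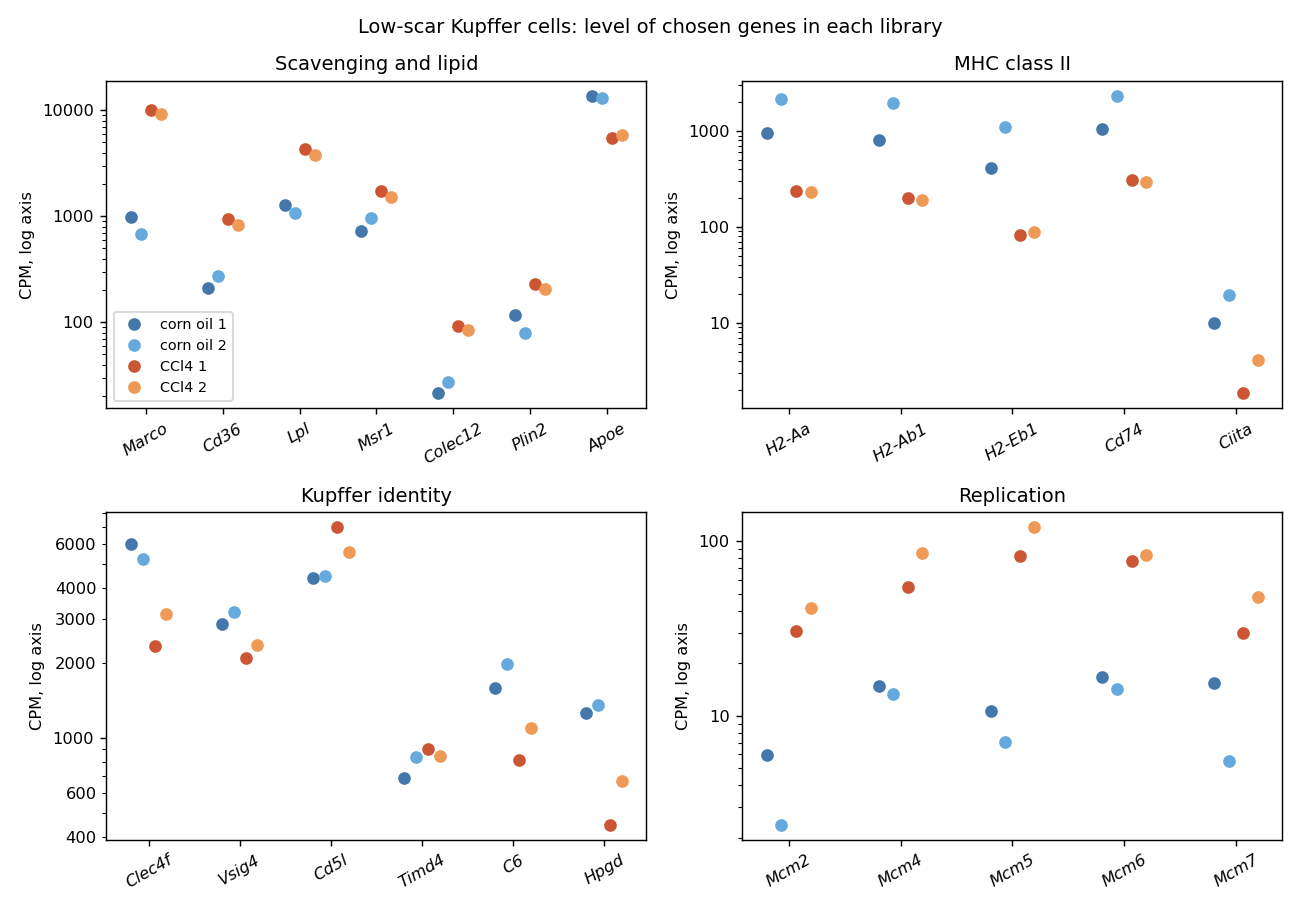
Each point is the CPM of a gene in the summed low-scar Kupffer cells of 1 mouse, on log axes. Marco, Cd36 and Lpl are higher in both CCl4 mice, the MHC class II genes lower, and Timd4 stays between 692 and 900.4 CPM in the 4 mice.

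Genes of lipid uptake and storage rose, and Apoe fell. Cd36, a fatty acid and oxidized lipoprotein receptor, rose from 212 and 275 CPM to 936 and 825 CPM (log2 1.86, SE 0.189, adjusted p = 0.00139). Lpl, which frees fatty acids from lipoproteins, rose from 1269.6 and 1076 CPM to 4308 and 3775 CPM (log2 1.78, SE 0.19, adjusted p = 0.0016). Neither gene's groups overlapped, which held for 414 of the 415 genes called higher. Plin2, a coat protein of lipid droplets, rose from 116 and 79.7 CPM to 229.5 and 207 CPM (log2 1.15, SE 0.204, adjusted p = 0.00958), and the desaturase gene Scd2 rose from 45.1 and 58.4 CPM to 203 and 152 CPM (log2 1.79, SE 0.217, adjusted p = 0.00236). Apoe, the apolipoprotein that macrophages secrete with cholesterol, was among the most abundant transcripts at 13682 and 13214 CPM in corn oil and 5497 and 5882 CPM in CCl4 (log2 -1.24, SE 0.194, adjusted p = 0.00612). Of the 33 tested genes of cholesterol efflux and lipid handling 8 rose and 3 fell, with a median log2 of 0.01. Called genes were 33.3% of this list, against 8.90% of all genes tested. The cholesterol exporters Abca1 (log2 0.01, adjusted p = 0.977) and Abcg1 (log2 0.26, adjusted p = 0.377) were not called. Without CCl4 1 the counts were 5 and 0, and the adjusted p of Apoe was 0.0537.

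Genes that mark Kupffer cells divided. Of 36 tested identity genes outside the selection 3 rose and 6 fell (median log2 -0.09, 25% called against 8.90% of all genes tested). Timd4 was not called (log2 0.19, adjusted p = 0.528). C6 fell (values above, log2 -0.90, SE 0.205, adjusted p = 0.0245). Hpgd, which inactivates prostaglandins, fell from 1263 and 1361 CPM to 448 and 671 CPM (log2 -1.23, SE 0.209, adjusted p = 0.00794), and the groups did not overlap. Id1, an inhibitor of differentiation induced by BMP signals, fell from 319 and 295 CPM to 124 and 139 CPM (log2 -1.23, SE 0.168, adjusted p = 0.00329). Beside Marco, Lyve1, a hyaluronan receptor, rose (log2 1.43, SE 0.282, adjusted p = 0.0145), but sinusoidal endothelium also makes it and the call was lost at an endothelial limit of 0.1% of UMIs and at 1%. Clec4f (5968 and 5199 CPM in corn oil and 2342 and 3151 CPM in CCl4) and Vsig4 (2873 and 3192 CPM in corn oil and 2092 and 2351 CPM in CCl4) were lower and Cd5l (4380.2 and 4449.8 CPM in corn oil and 6993 and 5547 CPM in CCl4) higher in both CCl4 mice, given without a test since they chose the cells. Leaving out CCl4 1 gave 2 higher and 3 lower, leaving out corn oil 1 gave 4 and 11, and leaving out corn oil 2 gave 4 and 9. The adjusted p became 0.172 for C6 without CCl4 1.

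More complement genes fell than rose, and iron genes were called about as often as all genes. In 13 of 19 tested complement genes both CCl4 mice lay below both corn oil mice, against 2414 of the 8764 genes tested. Of the 19, 1 was called higher and 4 lower (median log2 -0.49, 26.3% called against 8.90% of all genes tested). The counts were 0 and 0 without CCl4 1, 1 and 7 without corn oil 1 and 2 and 6 without corn oil 2. C1qa, a chain of the first component, fell from 3045 and 2550.1 CPM to 1523 and 1737 CPM (log2 -0.78, SE 0.184, adjusted p = 0.0288), while its partner chains C1qb (log2 -0.49, adjusted p = 0.125) and C1qc (log2 -0.53, adjusted p = 0.106) were lower in both CCl4 mice and not called. Of 22 iron and heme genes 1 rose and 1 fell. The iron exporter Slc40a1 was at 4036 and 3329 CPM in corn oil and 4043 and 4697 CPM in CCl4 (adjusted p = 0.461) and the heme oxygenase Hmox1 at 1254 and 1178 CPM in corn oil and 2257 and 1603 CPM in CCl4 (adjusted p = 0.0636). Fth1, the ferritin heavy chain, rose (log2 0.78, adjusted p = 0.0447) and Trf, transferrin, fell (log2 -0.90, adjusted p = 0.0116). The iron counts were 4 and 2 when corn oil 1 was left out, 2 and 2 when corn oil 2 was, 0 and 1 when CCl4 1 was and 1 and 2 when CCl4 2 was. Calls were lost, with an adjusted p of 0.197 for C1qa and 0.244 for Fth1 without CCl4 1; 0.0563 for C1qa and 0.0515 for Fth1 without CCl4 2.

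MHC class II genes, which present antigen to CD4 T cells, fell together. H2-Aa was at 965 and 2140.4 CPM in corn oil and 238 and 234 CPM in CCl4 (log2 -2.72, SE 0.32, adjusted p = 0.00216), on chr17:34282744-34287823, minus strand. H2-Ab1 was at 813 and 1967 CPM in corn oil and 203 and 192 CPM in CCl4 (log2 -2.81, SE 0.346, adjusted p = 0.00243). The invariant chain gene Cd74 was at 1054 and 2331 CPM in corn oil and 306 and 298 CPM in CCl4 (log2 -2.49, SE 0.316, adjusted p = 0.0027). For all of these the corn oil mice differed by about as much as a doubling, corn oil 2 being the higher, and both lay above both CCl4 mice. In all, 7 of 12 tested genes of the list fell and 0 rose (median log2 -1.46, 58.3% called against 8.90% of all genes tested). The others that fell were H2-Eb1, H2-DMa, H2-DMb1 and Ciita, the transactivator of the locus (log2 -2.33, SE 0.604, adjusted p = 0.0401). Without CCl4 1 there were 5. Leaving out a library moved the adjusted p to 0.219 for Ciita without corn oil 2; 0.224 for Ciita and 0.0728 for H2-DMb1 without CCl4 1. The costimulatory gene Cd86 was at 155 and 140.5 CPM in corn oil and 165 and 197 CPM in CCl4 (adjusted p = 0.334). B and plasma cell markers made up 0.00258% and 0.00176% of member UMIs in corn oil and 0.000247% and 0.000849% in CCl4. Conventional dendritic cell markers made up 0.00264% and 0.00373% in corn oil and 0.00260% and 0.00229% in CCl4. The part of such cells in the fall was not tested.

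Class II promoters carry conserved boxes that bind the complex recruiting Ciita. The Y box letters CTGATTGG or their reverse complement were searched in the 250 bases before the start in the RefSeq promoters of GRCm38.p6, where 4 of the 7 genes that fell had an entry. They were found in 2, H2-Eb1 and H2-Aa, against 4.43% of all 27025 genes with a promoter there (3.83% of the 32851 promoters). The stretches are shown because both genes fell and hold the letters. They lie at chr17:34305775-34305842, plus strand (H2-Eb1) and chr17:34287837-34287904, minus strand (H2-Aa), and the capitals mark the Y box.
H2-Eb1: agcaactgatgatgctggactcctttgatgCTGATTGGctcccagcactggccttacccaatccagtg
H2-Aa: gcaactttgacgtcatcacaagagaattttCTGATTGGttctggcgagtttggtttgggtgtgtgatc
A match describes letters only.

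Over cells, the class II genes H2-Aa, H2-Ab1, H2-Eb1 and Cd74 summed to a median of 9 and 22 UMIs in corn oil and 1 and 1 in CCl4 after thinning. At least 3 such UMIs were held by 85.7% and 95.5% of corn oil members and by 35.1% and 40.3% of CCl4 members, against 6.7%, 5.8%, 5.3% and 5.3% of endothelial cells. In CCl4 the tenth of members with the most class II UMIs held 54.0% and 42.7% of them, against 36.4% and 27.8% in corn oil.

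**Figure D4:**
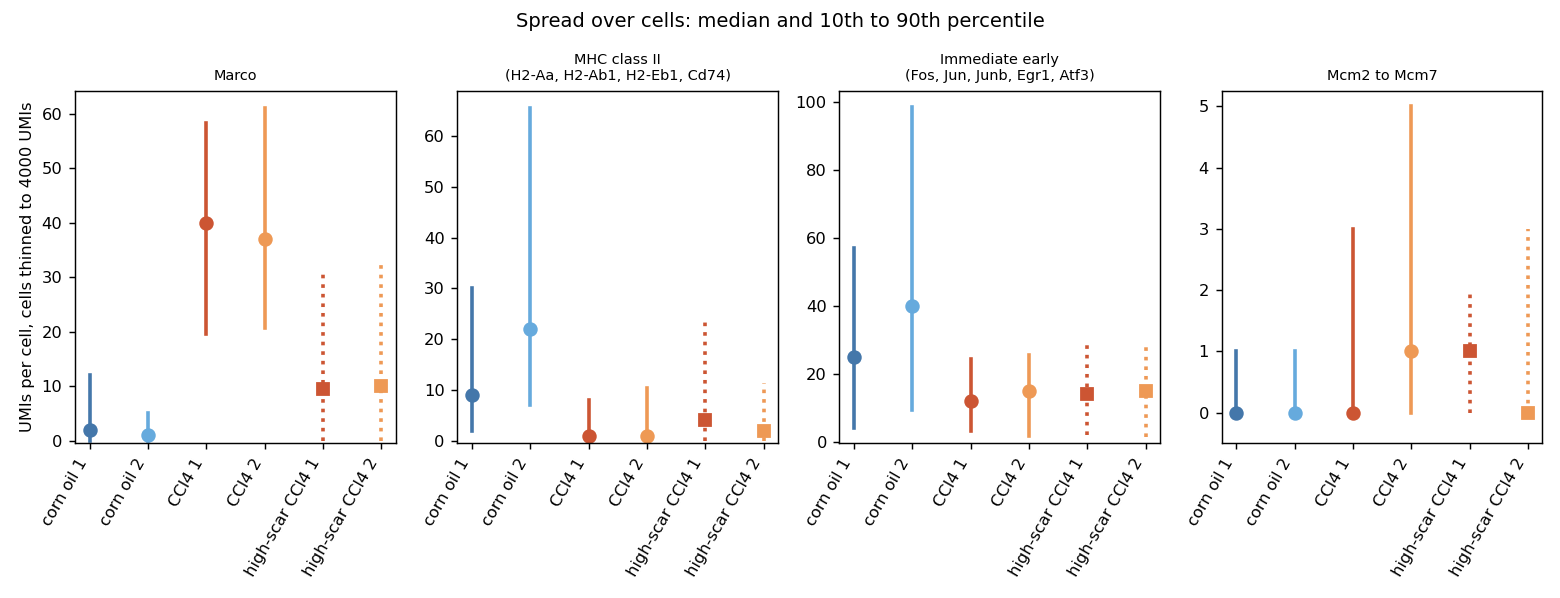
Points give the median and lines the 10th to 90th percentile of UMIs per cell after thinning to 4000 UMIs, with squares and dotted lines for high-scar cells. The Marco ranges of the corn oil and CCl4 low-scar cells do not overlap. The high-scar medians (9.5 and 10) lie between the medians of these cells, and the high-scar ranges (0 to 30.7 and 0 to 32.6) overlap those of both.

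DNA replication genes rose although cells with 3 or more UMIs of Mki67 and Top2a had been left out. Mcm5, a subunit of the replicative helicase, was at 10.7 and 7.10 CPM in corn oil and 82.0 and 121 CPM in CCl4 (log2 3.46, SE 0.313, adjusted p = 0.00104). Mcm6 was at 16.6 and 14.2 CPM in corn oil and 77.7 and 83.2 CPM in CCl4 (log2 2.37, SE 0.245, adjusted p = 0.00139), and Mcm2 at 5.93 and 2.37 CPM in corn oil and 30.6 and 41.6 CPM in CCl4 (log2 3.01, SE 0.43, adjusted p = 0.00389). These helicase genes were low in corn oil and above it in both CCl4 mice. Of 25 tested cell cycle genes 11 rose and 1 fell (median log2 0.81, 48% called against 8.90% of all genes tested). The 11 were Mcm2 to Mcm7, Pcna, Tk1, Cdk1, Cdk4 and Tubb5. The gene that fell was Cdkn1a, the cyclin-dependent kinase inhibitor p21, at 893 and 199 CPM in corn oil and 100.4 and 49.7 CPM in CCl4 (log2 -2.85, SE 0.571, adjusted p = 0.0151). Its level in corn oil 1 was over 4 times that in corn oil 2, yet in summed CPM both lay above both CCl4 mice. Per cell, corn oil 1 stood apart. A Cdkn1a UMI was seen in 80.71% and 23.88% of thinned corn oil members and in 17.53% and 12.99% of CCl4 members. The medians were 3 and 0 UMIs in corn oil and 0 and 0 in CCl4. Without thinning, the share in corn oil 2 (30.3%) lay below that in CCl4 1 (33.3%). DESeq2 did not keep the call of Cdkn1a. Without CCl4 2 the count was 7 higher and 1 lower, and without corn oil 1 it was 13 and 2. With only cells at 0 UMIs of Mki67 and Top2a, an alternative added after the data were seen, it was 5 higher and 1 lower. The adjusted p was 0.0765 for Pcna and 0.131 for Cdk1 without corn oil 2, 0.193 for Cdk1 without CCl4 1, 0.0584 for Mcm7, 0.13 for Pcna, 0.122 for Tk1, 0.104 for Cdk1 and 0.0781 for Cdk4 without CCl4 2.

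Other genes of DNA replication and its chromatin were among the largest rises. Uhrf1, which maintains DNA methylation behind the fork, had 1 and 0 UMIs in corn oil and 23 and 43 in CCl4 (log2 5.83, SE 0.889, adjusted p = 0.00532). Cdca7 had 1 and 0 UMIs in corn oil and 42 and 44 in CCl4 (log2 6.17, SE 0.678, adjusted p = 0.00171). Ung, a DNA glycosylase that removes uracil, had 2 and 2 and then 27 and 32 UMIs, and Hells, a chromatin remodeller and partner of Cdca7, 3 and 3 and then 29 and 33. These fitted changes rest on very few corn oil UMIs and their sizes depend on the prior count. Per cell, at least 3 UMIs summed over Mcm2 to Mcm7 were seen in 1.43% and 1.49% of thinned corn oil members and in 17.5% and 27.3% of CCl4 members, against 2.0% to 6.1% of endothelial cells. At least 1 such UMI was seen in 28.6%, 20.1%, 46.4% and 54.5% of members (48.2%, 33.9%, 73.5% and 72.7% without thinning) and in 33.2% to 44.5% of endothelial cells.

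E2F factors switch on replication genes through sites near their starts. The E2F letters TTTCCCGC or TTTGGCGC were searched on either strand. They were found in 3 of the 10 risen cell cycle genes with a RefSeq promoter (Mcm5, Mcm6 and Mcm7). Over all 27025 genes with a promoter the share was 1.51% (1.30% of all promoters). The stretches of Mcm5 and Mcm6 are shown because they had the larger rises of the 3 genes. They lie at chr8:75109330-75109397, plus strand (Mcm5) and chr1:128359778-128359845, minus strand (Mcm6), with the E2F letters in capitals. Mcm5 carries them on the other strand, and Mcm6 has a further match nearer its start.
Mcm5: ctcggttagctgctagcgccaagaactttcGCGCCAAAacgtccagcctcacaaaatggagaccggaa
Mcm6: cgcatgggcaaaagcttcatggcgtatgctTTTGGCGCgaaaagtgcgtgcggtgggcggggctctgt
Mcm2, Mcm3, Pcna, Tk1, Cdk1, Cdk4 and Tubb5 did not hold these letters in this window.

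Chaperone and folding genes of the endoplasmic reticulum rose. Of 26 tested genes of the unfolded protein response and secretory pathway 14 rose and 0 fell, with a median log2 of 0.77. Called genes were 53.8% of this list, against 8.90% of all genes tested. Sdf2l1, which assists the chaperone BiP, rose from 75.3 and 56.0 CPM to 227 and 214 CPM (log2 1.74, SE 0.194, adjusted p = 0.00187). Hspa5, which encodes BiP, rose from 1363 and 909 CPM to 2665 and 1977 CPM (log2 1.03, SE 0.232, adjusted p = 0.024). Hyou1, a companion chaperone, rose from 40.9 and 39.5 CPM to 159 and 111 CPM (log2 1.75, SE 0.224, adjusted p = 0.0027), Pdia4, a disulfide isomerase, from 84.8 and 67.1 CPM to 217 and 205 CPM (log2 1.47, SE 0.185, adjusted p = 0.00259), and Pdia6 from 155 and 145 CPM to 387 and 349 CPM (log2 1.29, SE 0.166, adjusted p = 0.0027). The groups did not overlap in any of these 5 genes, which held for 414 of the 415 genes called higher. Hsp90b1 was higher in both CCl4 mice and was not called (log2 0.66, adjusted p = 0.0558). In thinned cells 6 of the folding genes, Hspa5, Calr, Pdia3, Pdia4, Pdia6 and Manf, summed to a median of 11 and 7 UMIs in corn oil and 23 and 20 in CCl4, and in endothelial cells it went from 13 and 8 to 32 and 21. Without CCl4 1 the count was 8 and 0. The adjusted p of Hspa5 was 0.110 without CCl4 1, and of Manf 0.0596.

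The ER stress response element is a sequence through which ATF6 and its partners can raise chaperone genes of the endoplasmic reticulum. Its letters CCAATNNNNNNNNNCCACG, on either strand, were found in 4 of the 11 risen genes with a RefSeq promoter and in 0.113% of all promoters, which is 37 of 32851. The 4 stretches are shown with the element in capitals. They lie at chr2:34771995-34772073, plus strand (Hspa5), chr12:17266461-17266539, plus strand (Pdia6), chr8:84847045-84847123, minus strand (Calr) and chr15:88819490-88819568, plus strand (Creld2), and in Calr and Creld2 the element is on the other strand.
Hspa5: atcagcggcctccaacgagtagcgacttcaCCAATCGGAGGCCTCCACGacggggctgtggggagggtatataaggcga
Pdia6: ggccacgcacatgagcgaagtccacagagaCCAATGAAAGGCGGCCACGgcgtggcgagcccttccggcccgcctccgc
Calr: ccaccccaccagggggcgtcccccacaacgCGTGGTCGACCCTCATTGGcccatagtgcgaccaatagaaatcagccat
Creld2: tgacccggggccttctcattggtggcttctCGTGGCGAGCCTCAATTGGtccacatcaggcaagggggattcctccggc
The log2 changes of these genes were 1.03 for Hspa5, 1.29 for Pdia6, 1.04 for Calr and 1.77 for Creld2, and each was called.

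Lysosomal genes were called about as often as all genes tested (11.1% against 8.90%). Glycolysis genes rose as well, with 30.4% of those tested called. Among 23 tested, 7 rose and 0 fell (median log2 0.53), with 5 and 1 without corn oil 1. Gapdh was at 402 and 438 CPM in corn oil and 1083 and 1113 CPM in CCl4 (log2 1.39, SE 0.165, adjusted p = 0.00233), Pkm, pyruvate kinase, at 149 and 159 CPM in corn oil and 334 and 332 CPM in CCl4 (log2 1.11, SE 0.162, adjusted p = 0.00414), and Pgk1, phosphoglycerate kinase, at 79.5 and 105 CPM in corn oil and 239 and 219 CPM in CCl4 (log2 1.32, SE 0.189, adjusted p = 0.00389). The mice of a group lay close together in each and the groups were apart. Among 28 tested NRF2 targets and glutathione genes 5 rose and 3 fell (28.6% called). Txnrd1, thioredoxin reductase, rose from 93.1 and 107 CPM to 232 and 256 CPM (log2 1.29, SE 0.174, adjusted p = 0.0032), and Gstm1, a glutathione transferase, fell (log2 -1.45, SE 0.259, adjusted p = 0.00975) and stood at 9.31% of its stellate level. Without CCl4 1 the NRF2 counts were 1 and 2, and without CCl4 2 they were 3 and 3. Of 45 tested lysosomal genes 4 rose and 1 fell (2 and 0 without CCl4 1, 7 and 2 without corn oil 1), with Gla, alpha-galactosidase, the largest rise (log2 1.84, SE 0.26, adjusted p = 0.00371).

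Immediate early genes, which tissue digestion induces within minutes, fell. Called genes were 50% of those tested in this list, against 8.90% of all genes tested. Of 36 tested genes of this list 16 fell and 2 rose (median log2 -0.94), with 15 to 19 falling when any library was left out. Egr1 was at 1114 and 2157 CPM in corn oil and 256 and 567 CPM in CCl4 (log2 -2.0, SE 0.373, adjusted p = 0.0116). Jun was at 1618 and 2845 CPM in corn oil and 866 and 756 CPM in CCl4 (log2 -1.46, SE 0.252, adjusted p = 0.00858). Ier5 was at 416 and 433 CPM in corn oil and 139.6 and 111 CPM in CCl4 (log2 -1.76, SE 0.179, adjusted p = 0.00139). All 3 genes, which encode nuclear regulators, were lower in both CCl4 mice. The summed median of Fos, Jun, Junb, Egr1 and Atf3 in thinned cells was 25 and 40 UMIs in corn oil and 12 and 15 in CCl4, and in endothelial cells of the same mice it went from 57 and 66 to 35.5 and 24.5. The part of the digestion in this difference was not tested. Hsp90aa1 and Mt2 rose, and the number was 7 without corn oil 1 and without CCl4 2, 4 without corn oil 2 and 0 without CCl4 1. Mt2, a metallothionein, had 16.0 and 33.1 CPM in corn oil and 274 and 32.6 CPM in CCl4, so that its groups overlapped and CCl4 1 alone was high (without it log2 0.44 and adjusted p = 0.641), and its level was 6.01% of that in stellate cells.

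Clock output genes fell. Nr1d1, a nuclear receptor that represses transcription in the clock loop, was at 113 and 55.2 CPM in corn oil and 8.57 and 14.7 CPM in CCl4 (log2 -2.90, SE 0.398, adjusted p = 0.00329), and Nr1d2 at 58.1 and 52.1 CPM in corn oil and 11 and 14.7 CPM in CCl4 (log2 -2.12, SE 0.286, adjusted p = 0.0032). Per1, a repressor of the core clock, was at 75.3 and 144 CPM in corn oil and 27.5 and 29.4 CPM in CCl4 (log2 -1.93, SE 0.308, adjusted p = 0.00627). Dbp and Tef, transcription factors driven by the clock, also fell, to 2 UMIs of Dbp in each CCl4 mouse. In all 5 of 11 tested clock genes fell and 0 rose (median log2 -0.72, 45.5% called against 8.90% of all genes tested). The hour at which each mouse was killed is not stated in the labels used, and it cannot be told apart from the groups. Without corn oil 2 the counts were 2 higher and 4 lower, and 1 rose without corn oil 1 and without CCl4 2. The adjusted p became 0.0756 for Dbp and 0.198 for Tef without corn oil 2; 0.0968 for Tef without CCl4 1.

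Chemokine and inflammatory genes did not move in a common direction. Called genes were 35.3% of the tested chemokines and 32% of the NF-kappaB and inflammatory genes, against 8.90% of all genes tested. Ccl9, a CC chemokine, rose from 27.3 and 54.5 CPM to 149 and 219 CPM (log2 2.20, SE 0.302, adjusted p = 0.00329), Ccl6 from 956 and 1205 CPM to 2686 and 2374 CPM (log2 1.23, SE 0.189, adjusted p = 0.00565) and Ccl7, which draws monocytes, from 41.5 and 18.9 CPM to 176 and 84.0 CPM (log2 2.08, SE 0.384, adjusted p = 0.0111). Cxcl12 fell (log2 -1.69, SE 0.357, adjusted p = 0.0185). It stood at 1.20% of its level in stellate cells, where it was 3125 CPM in corn oil and 1651 CPM in CCl4, and the stellate gene Dcn went from 155 and 171 UMIs in the members to 60 and 21. The part of stellate RNA in the fall of Cxcl12 was not tested. Cxcl13, a B cell attractant, was at 183 and 692 CPM in corn oil and 1450.0 and 660.4 CPM in CCl4 with overlapping groups (adjusted p = 0.137). In all 4 of 17 chemokines rose and 2 fell, 7 and 2 without CCl4 2 and 5 and 5 without corn oil 1. Of 25 NF-kappaB and inflammatory genes 4 rose and 4 fell, 3 and 11 without corn oil 1, 2 and 5 without CCl4 1 and 6 and 2 without CCl4 2. Il18, an inflammasome cytokine, rose from 74.8 and 97.1 CPM to 203 and 203 CPM (log2 1.25, SE 0.186, adjusted p = 0.00482). The inhibitor genes Nfkbia (log2 -1.17, SE 0.282, adjusted p = 0.0302) and Nfkbie (log2 -1.40, SE 0.358, adjusted p = 0.0381) fell. Of 42 interferon response genes 1 rose and 1 fell, shares of the list below those over all genes tested, with 10 and 3 without corn oil 1, 3 and 3 without corn oil 2, and 6 and 0 without CCl4 2. Calls were lost, with an adjusted p of 0.0728 for Nfkbie without corn oil 2, 0.197 for Nfkbie without CCl4 1, 0.0782 for Nfkbia without CCl4 2.

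Receptors and signalling genes of growth factors fell where they were called. Called genes were 21.1% of the tested macrophage growth factor and receptor genes, against 8.90% of all genes tested. They were 11.1% of the tested activin, BMP and TGF-beta genes, near that share. Of the tested alternative activation genes 38.5% were called, in both directions. Il6ra, the IL-6 receptor, fell from 485 and 349 CPM to 195 and 203 CPM (log2 -1.07, SE 0.192, adjusted p = 0.00992), and Smad7, an inhibitor of TGF-beta signalling, from 113 and 113 CPM to 53.9 and 51.4 CPM (log2 -1.10, SE 0.184, adjusted p = 0.00748). Of 19 tested macrophage growth factor and receptor genes 4 fell (2 without CCl4 1 and 6 without corn oil 1), and of 27 activin, BMP and TGF-beta genes 3 fell (7 without corn oil 1 and 2 without CCl4 1 or corn oil 2), with 0 higher in either. Csf1r, the receptor for the macrophage survival factor M-CSF, was lower in both CCl4 mice at 2659 and 3084 CPM in corn oil and 1653 and 1993 CPM in CCl4 and was just not called (adjusted p = 0.0548). Of 13 alternative activation genes 2 rose and 3 fell (2 and 7 without corn oil 1, 0 and 1 without CCl4 1, 1 and 4 without CCl4 2), and Cd163, the haptoglobin-hemoglobin receptor, was at 1160.5 and 1233 CPM in corn oil and 637 and 928 CPM in CCl4 (adjusted p = 0.0845).

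Several scar-associated genes that the selection did not read rose even in these low-scar cells. Of 34 tested 10 rose and 3 fell (median log2 0.44, 38.2% called against 8.90% of all genes tested). Since the list goes with the selecting genes, its count is not independent of the selection. Il1rn, the IL-1 receptor antagonist, rose from 11.3 and 22.9 CPM to 41.0 and 65.2 CPM (log2 1.66, SE 0.367, adjusted p = 0.0223). Lgals3, galectin-3, rose from 663 and 449.9 CPM to 1168 and 993 CPM (log2 0.96, SE 0.209, adjusted p = 0.0214), and the tetraspanin gene Cd9 from 18.4 and 22.1 CPM to 42.8 and 51.4 CPM (log2 1.22, SE 0.271, adjusted p = 0.0226). Trem2, a lipid receptor of scar-associated macrophages, was at 73.6 and 82.1 CPM in corn oil and 88.8 and 110.1 CPM in CCl4 and was not called (adjusted p = 0.289). Restricting members to 0 UMIs of Mmp12, Gpnmb, Spp1 and Adam8 left 463 genes higher and 396 lower over the transcriptome. Without CCl4 1 the list count was 6 and 1. Leaving out a library moved the adjusted p to 0.0765 for Lgals3 without CCl4 1; 0.0624 for Cd9 without CCl4 2.

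Among 18 tested genes of monocyte-derived macrophages 2 rose and 1 fell (16.7% called, against 8.90% of all genes tested). Plac8, a monocyte gene, rose from 149.5 and 234 CPM to 540.5 and 644 CPM (log2 1.63, SE 0.222, adjusted p = 0.00329) with the groups apart, and Ifitm3, an interferon-induced membrane protein, from 1320.1 and 1350.4 CPM to 2439 and 2237 CPM (log2 0.81, SE 0.171, adjusted p = 0.0187). Lyz2, lysozyme, was at 5551 and 7645 CPM in corn oil and 6395 and 4594 CPM in CCl4 with overlapping groups, and Ccr2, the chemokine receptor of inflammatory monocytes, had 6, 4, 19 and 10 UMIs (adjusted p = 0.1). Of the monocyte markers Ly6c2 had 8, 8, 1 and 4 UMIs and Chil3 0, 13, 5 and 2. Plac8 was lower in the high-scar cells of the same mice. The list counts were 5 and 2 when corn oil 1 was left out, 7 and 1 when corn oil 2 was, 1 and 0 when CCl4 1 was and 3 and 1 when CCl4 2 was. The adjusted p was 0.104 for Ifitm3 without CCl4 1.

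Low-scar and high-scar Kupffer cells of the CCl4 mice are set side by side on unscaled CPM, as a description, since the split was made on readout. Marco was at 10246 and 9549 CPM in the low-scar cells of CCl4 1 and CCl4 2 and at 3331 and 3630.0 in the high-scar cells. Plac8 was at 546 and 671 against 143 and 152. The Kupffer genes Timd4 (909 and 882 against 353 and 319), C6 (821 and 1144 against 281 and 448) and Cd163 (643 and 966 against 251 and 464) were all higher in the low-scar cells. On the other side, H2-Aa (240.4 and 244 against 720.2 and 485), Il1rn (41.4 and 67.9 against 818 and 716), Ccl9 (151 and 228 against 1450.4 and 1033) and Cd36 (946 and 859 against 1627 and 1397) were higher in the high-scar cells. A Timd4 UMI was seen in 93.8% and 90.9% of thinned low-scar cells and in 59.3% and 58.5% of thinned high-scar cells (98.0%, 94.3%, 76.3% and 72.7% without thinning). Of the 415 genes that rose with CCl4, 67 were higher and 143 lower in the high-scar than in the low-scar cells in both mice, against 1593 and 2075 of the 8764 genes tested.

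The CCl4 effect in low-scar Kupffer cells was compared with that in endothelial cells, 2735 to 5053 per library, by edgeR's test of the class by treatment term with mouse as a block. The effects differed for 789 of 12547 genes (6.29%). Mcm5 did not rise in endothelial cells (log2 -0.39), and the difference was 3.81, adjusted p = 9.86e-08. For Cdkn1a the endothelial log2 was 0.80 (difference -3.41, adjusted p = 2.37e-07). H2-Aa was level in endothelial cells (log2 0.02, difference -2.73, adjusted p = 8.54e-06). Few of these cells set that level. Among thinned endothelial cells, the tenth with the most UMIs of H2-Aa, H2-Ab1, H2-Eb1 and Cd74 held 95.3% to 98.8% of them. In stellate cells H2-Aa was lower with CCl4, at 688 CPM in corn oil and 256 CPM in CCl4, a difference that was not tested. For Cd36 the Kupffer rise was larger (difference 1.14, adjusted p = 0.000732). Nr1d1 (endothelial log2 -1.31, difference -1.71, adjusted p = 0.00549) changed in the same direction in both classes and further in the Kupffer cells. No difference was called for Hyou1 and Sdf2l1: the endothelial log2 was 1.71 for Hyou1 (difference -0.01, adjusted p = 0.999) and 1.74 for Sdf2l1 (difference 0.07, adjusted p = 0.958). Marco is barely measured in endothelial cells, and its difference was 0.64, adjusted p = 0.348. Leaving out a control mouse lowered the number of differing genes to 334 (corn oil 1) or 297 (corn oil 2), and leaving out an injured mouse gave 527 (CCl4 1) or 721 (CCl4 2).

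**Figure D5:**
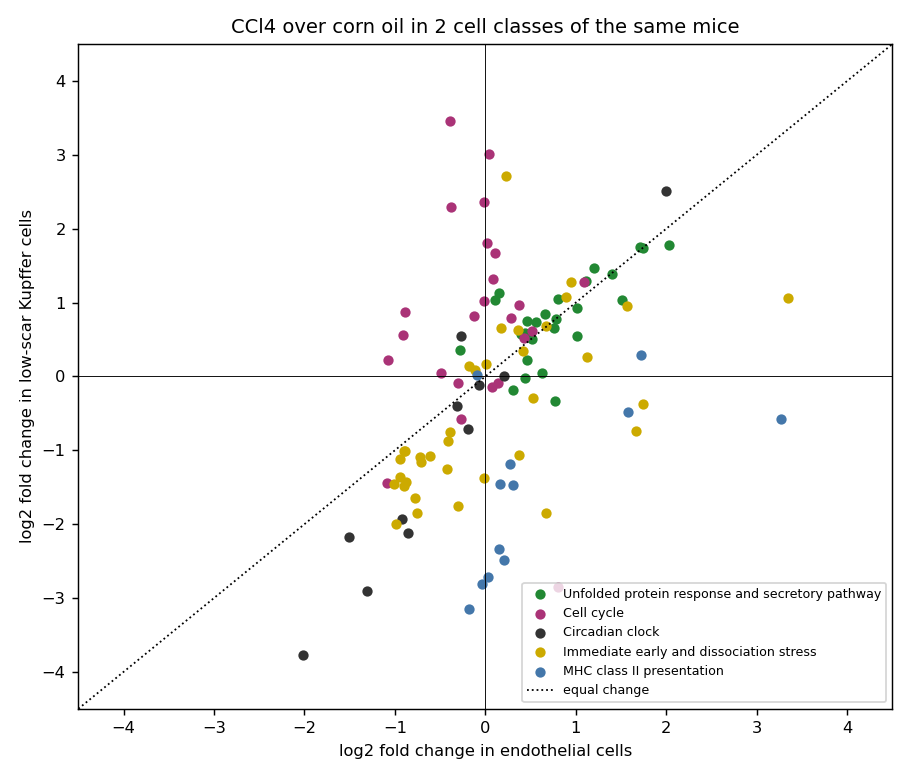
Each point is a gene of 5 lists, with its log2 fold change in endothelial cells on the x axis and in low-scar Kupffer cells on the y axis. Hyou1 and Sdf2l1 lie on the line of equal change, Mcm5 lies furthest above it among cell cycle genes, and H2-Aa, H2-Ab1 and H2-Eb1 lie below it.

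Against C1q-positive macrophages that lacked Clec4f, of which there were 47, 51, 289 and 488 per library, the CCl4 effect differed for 114 of 9469 genes (1.20%), and for 685 without corn oil 1 and 221 without corn oil 2. Cd36 went up in the Kupffer cells and down in these macrophages (log2 -2.05, difference 3.75, adjusted p = 0.000515). Plac8 had a log2 of 6.65 there (difference -5.03, adjusted p = 0.00124). For Mcm5 the log2 there was 0.19 (difference 3.33, adjusted p = 0.0144), and for Cdkn1a it was 0.35 (difference -2.91, adjusted p = 0.0184). For H2-Aa the log2 in these macrophages was -0.93 (difference -1.73, adjusted p = 0.154), which was not called. The make-up of this class differed between the groups: peritoneal-type macrophage markers were 0.398% and 0.483% of its UMIs in corn oil and 0.0835% and 0.124% in CCl4, and monocyte markers 0.145% and 0.0924% and then 0.192% and 0.430%. The part of this make-up in the differences was not tested.

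The remaining largest changes were in genes of varied function. Ptgis, prostacyclin synthase, fell from 62.3 and 81.3 CPM to 2.45 and 5.71 CPM (log2 -4.17, SE 0.382, adjusted p = 0.00104), and Trp53inp1, a p53-induced gene, from 93.7 and 46.6 CPM to 5.51 and 16.3 CPM (log2 -2.77, SE 0.461, adjusted p = 0.00739). Ypel2 fell from 22.5 and 23.7 CPM to 1.84 and 1.63 CPM (log2 -3.66, SE 0.495, adjusted p = 0.0032) and Plxna4, a semaphorin receptor, from 24.3 and 22.1 CPM to 1.84 and 4.08 CPM (log2 -3.01, SE 0.481, adjusted p = 0.00627). Each was low in both CCl4 mice. In corn oil Ptgis stood at 16.1% and Plxna4 at 15.2% of the level in stellate cells. The part of stellate RNA in the falls of Ptgis and Plxna4 was not tested. Car3, a carbonic anhydrase abundant in hepatocytes, had 52 and 51 UMIs in corn oil and 3 and 1 in CCl4, and Pck1, a gene of glucose synthesis, 29 and 38 and then 2 and 6, beside the hepatocyte marker sums given above, whose part was not tested. Both were lower with CCl4 in the other classes too: the endothelial log2 was -3.75 for Car3 and -2.07 for Pck1, that in C1q-positive macrophages -3.66 and -2.35, and no difference was called (against endothelial cells adjusted p = 0.49 and 0.371). Lmnb1, a nuclear lamin, rose from 2.97 and 3.16 CPM to 23.9 and 31.8 CPM (log2 3.14, SE 0.436, adjusted p = 0.00334). Serpina3n, a protease inhibitor, had 0 and 2 UMIs in corn oil and 30 and 38 in CCl4 and stood at 3.44% of its level in stellate cells. Cd93 (log2 2.76, SE 0.354, adjusted p = 0.0027) and Inhbb (log2 3.58, SE 0.743, adjusted p = 0.0175) stood at 3.47% and 5.37% of their endothelial level, and the part of free RNA in these rises was not tested. Gas7 was much higher in CCl4 1 than elsewhere, at 4.75 and 1.58 CPM in corn oil and 36.7 and 8.97 CPM in CCl4. The adjusted p became 0.246 for Inhbb, 0.482 for Gas7 and 0.0506 for Pck1 without CCl4 1.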

How the data were processed

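Single-cell RNA-seq UMI counts from liver nonparenchymal cells of 4 mice (2 corn oil, 2 CCl4) were analysed. The authors' deposited tables hold whole-number molecule counts per cell and gene, made with the BD WTA Rhapsody Analysis Pipeline 1.9.1 on GRCm38 with GENCODE vM19, per the file headers. Member cells and gene lists were chosen with earlier results of these data known. No doublet caller was run. Cells with Kupffer and endothelial genes together were left out by the selection. Member counts were summed per mouse (1177976 to 1705919 UMIs) and tested with edgeR 4.0.16 (R 4.3.3) by quasi-likelihood, with TMM factors, filterByExpr and Benjamini-Hochberg adjustment at 0.05 over all genes tested. The 19 selection genes and mitochondrial genes were fitted and given no p. SE is the log2 change divided by the square root of F. The script was tested on simulated counts. Class by treatment terms were fitted with mouse as a block. Shares per cell used random thinning to 4000 UMIs (numpy 2.4.6), and exact tests scipy 1.17.1. Figures were drawn with matplotlib 3.10.9.

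Named genes were called, with groups not overlapping and at least 20 CPM in the higher group, as the 12 largest rises and 12 largest falls. From each list up to 5 called genes a direction and 2 not called were added, with the 5 markers. Outside this rule, Hspa5, Calr, Pdia3, Pdia6, Lgals3, Trem2, Ccr2, Hmox1, Abca1, Abcg1, Jun, Fos, Junb, H2-DMa, H2-DMb1, Mcm3, Pcna, Tk1, Cdk1, Cdk4 and Tubb5 were named after their values were seen. Promoter sequences came from RefSeq (GRCm38.p6) and gene positions from a GRCm38 annotation. Alternatives were DESeq2 1.42.0, other scaling, no filter, a replicate block, each library left out, other cell limits and thinning. Limits of 1% for endothelial genes and of 0 cycling UMIs were added after seeing the data.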

Additional observations from a re-analysis of the deposited data

Results flagged for a closer look

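The effect of CCl4 differed between low-scar Kupffer cells and endothelial cells of the same mice for 789 genes, by edgeR's class by treatment term at an adjusted p under 0.05. Against C1q-positive macrophages lacking Clec4f it differed for 114 genes. All values here are differences in log2 change, Kupffer minus the other class, over 2 mice per group.

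Replication and nuclear genes rose more in the Kupffer cells than in endothelial cells: Uhrf1 by 5.34 (adjusted p = 0.00531), Cdca7 by 4.33 (adjusted p = 0.0106), Mcm5 by 3.81 (adjusted p = 9.86e-08), Hells by 3.34 (adjusted p = 0.00445), Ung by 3.30 (adjusted p = 0.0413), Mcm2 by 2.95 (adjusted p = 0.000307) and Lmnb1 by 2.08 (adjusted p = 0.0226). Gas7 differed by 2.63 (adjusted p = 0.0125) and Cd93 by 1.38 (adjusted p = 0.0149).

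The difference was negative for Cdkn1a at -3.41 (adjusted p = 2.37e-07), Ptgis at -3.33 (adjusted p = 0.000443), Ypel2 at -3.26 (adjusted p = 9.36e-05), Plxna4 at -2.32 (adjusted p = 0.00429), Trp53inp1 at -2.0 (adjusted p = 0.00154) and Nr1d1 at -1.71 (adjusted p = 0.00549). It was also negative for the class II genes H2-Eb1 at -2.90 (adjusted p = 1.02e-05), H2-Aa at -2.73 (adjusted p = 8.54e-06) and H2-Ab1 at -2.72 (adjusted p = 1.09e-05).

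Against the C1q-positive macrophages the difference was 3.33 for Mcm5 (adjusted p = 0.0144), 2.17 for Cd93 (adjusted p = 0.0296), -2.91 for Cdkn1a (adjusted p = 0.0184) and -3.26 for Trp53inp1 (adjusted p = 0.0127). In the Kupffer cells the corn oil mice stood far apart for Cdkn1a, at 893 CPM in corn oil 1 and 199 CPM in corn oil 2.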

How the results depend on the processing

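With 2 mice per group, calls depend on single libraries: leaving out 1 library gave 162 to 617 genes higher and 162 to 549 lower (lowest without CCl4 1, highest without corn oil 1), against 415 and 365. DESeq2 gave 222 and 196, no filter on low counts 687 and 615, cells thinned to 4000 UMIs 237 and 211, and endothelial genes under 1% of UMIs 593 and 570. Without CCl4 1, 286 of the 780 called genes were still called. With the replicate number as a block, 469 and 400 genes were called. The numbers are not known to pair mice, and deviations of equally numbered mice correlated at 0.039.

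The log2 ratio of the share of members, -0.54, was -0.017 at 15% mitochondrial UMIs, -0.81 with scar genes at 0, -0.43 with endothelial genes under 0.1% and -0.91 under 1%, -0.88 after thinning, and -0.59 to -0.50 with a library left out. Genes differing from endothelial cells numbered 297 to 721 with a library left out, and those differing from C1q-positive macrophages 95 to 685.

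Of the 117 called genes named, 48 kept their call in every alternative run, 71 kept it without CCl4 1 and 78 with DESeq2. A gene without an adjusted p in DESeq2 was counted as not kept there. Of the 12 largest rises and 12 largest falls, DESeq2 did not keep Uhrf1, Serpina3n, Ung, Inhbb, Hells, Gas7, Dbp, Ypel2, Plxna4, Pck1 and Cdkn1a. The sign of the log2 change turned for few genes. With endothelial genes under 1% it was -0.067 for Fabp4, -0.24 for Mt2, -0.36 for Bhlhe40 and 0.015 for Igf1. The log2 change of Cd68 was -0.0302 at 15% mitochondrial UMIs, and it was 0.013 for Csnk1d with cycling genes at 0. With a library left out it ran from -0.10 to 0.20 for Cd68, -0.10 to 0.32 for Cd52, -0.28 to 0.00095 for H2afz, -0.28 to 0.052 for Csnk1d, -0.33 to 1.25 for Bhlhe40, -0.34 to 0.045 for Igf1 and -1.25 to 0.086 for Ccl24. The cause was not tested. Depth limits the low genes, such as Uhrf1 and Cdca7, with 1 and 0 UMIs in corn oil.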
